A study of Mus musculus with 72 samples.

Results

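The genes described here encode the cytosolic ribosomal proteins of the mouse. Members were protein-coding genes whose symbol begins with Rpl or Rps and a number, or is Rplp0, Rplp1, Rplp2 or Rpsa, without the Rps6k kinases and without pseudogene symbols. The rule found 86 of the 51826 genes counted. By their symbols, 33 of these were assigned to the small subunit and 52 to the large subunit, relatives such as Rpl7l1 included. The last, Rps19bp1, is a binding partner of Rps19 and is not itself a ribosomal protein. The rule misses ribosomal proteins with other names, of which Fau and Rack1 are given separately. The rule itself uses no measured value, but it was set with earlier results of these data known.

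The small ribosomal subunit reads the messenger RNA, and the large subunit joins the amino acids. Most of these proteins are present as a single copy in each ribosome, and their messages are short, abundant and long-lived in dividing cells. Many of the messages start with an unbroken run of C and U bases, the 5′ terminal oligopyrimidine tract, through which mTOR signalling controls their translation. Several of the genes also carry small nucleolar RNAs in their introns. Ribosomal proteins are made in the cytosol and enter the nucleus to be assembled with ribosomal RNA.

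E14TG2a mouse embryonic stem cells, grown in 2i + LIF medium, were labeled with 4-thiouridine (4sU), a uridine analog that is read as C after chemical conversion, so that T-to-C changes mark RNA made during labeling. Cells taken up in cycloheximide were extracted step by step, with digitonin releasing the cytosol and NP-40 the membrane fraction, and the remaining pellet gave the nucleus. A part of each extract was kept as whole cells, and poly(A) RNA was sequenced with a stranded kit. Of 72 libraries, 18 per fraction, 64 entered the main comparisons, and the 8 libraries of replicates 3 and 4 at 120 min were set aside, because the study left out long labeling at its higher dose.

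Cultures of replicates 1 and 2 gave the times 15, 20 and 30 min. Those of replicates 3 and 4 gave 20, 40 and 60 min, and replicates 5 and 6 were taken at 60 min and at 120 min. The labels give 500 µM 4sU up to 40 min and 100 µM from 60 min on, while the methods list the higher dose for some 60 min cultures too. The conversion probability at 60 min, estimated by the authors for each library, was 5.83% to 8.29% in replicates 3 and 4 and 2.38% to 3.99% in replicates 5 and 6. Apart from a check for outlying libraries at the end, the 60 min libraries of these pairs were not compared with each other. At 120 min, also 100 µM by the labels, the conversion probability was 8.825% to 12.2% in replicates 3 and 4. In replicates 5 and 6 it was 3.26% to 3.955%. By the labels, the comparisons of 60 with 20 min below set 100 µM against 500 µM. If the labels hold, time and dose cannot be told apart in them. Which dose replicates 3 and 4 received at 60 min was not settled here. All libraries used here carry 4sU, and unlabeled libraries were not used here. Replicates were passaged independently, and the fractions of 1 replicate and time come from the same culture.

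The libraries held 13185351 to 52975732 gene counts, with a median of 21494524. Summed stem cell markers stood at 3814 to 8444 CPM (read counts scaled to the library's total) over the fractions, against 5.97 to 28.8 for 8 markers of differentiated cells, of which 5 had a mean under 1 CPM. Nuclear RNAs such as Malat1 summed to 934 to 3520 CPM in nuclear and 98.8 to 840 in cytosolic libraries, and 10 markers of the secretory membranes to 9410 to 21080 CPM in membrane and 336 to 1194 in cytosolic libraries. The nuclear libraries still held 2620 to 5531 CPM of the membrane markers, and the part of such carry-over in the differences below was not tested. In whole cells of replicate 6, the library labeled 60 min had a higher median share of new RNA over all genes than that labeled 120 min, 37.4% against 17.5%, so these labels run against the order of times. Without these 2 libraries, 83 members were lower in the nucleus than in the cytosol in place of 79. The share of all genes that were lower rose too, to 31.6% in place of 21.4%. The member counts for the membrane level and for the shares of new RNA in nucleus and membrane stayed as given below.

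Members share much of their sequence with processed copies elsewhere in the genome. Of the 50-base words in a member's transcripts, a median of 45.5% occurred in no other gene's transcripts in the annotation, and the share was under 50% in 50 members. Rps27, a small subunit zinc finger protein, had the lowest share, 1.4%, and Rps27rt, its single-exon copy, had 8.9%. Rpl39l had 100%. Alignments to several places made up 19.4% to 34.9% of all alignments of a library and were not counted, so read levels of members with few unique words are uncertain. In 3 members the reads had a further limit: Rpl13a, Rpl24 and Rpl36al overlap an annotated gene on the same strand, Gm45713, Gm28037 and Gm49383. Per read counted in whole cells, Rpl13a had 1230 sequenced T positions, Rpl36al 2322 and Rpl24 123800, against a median of 30.2 over all genes. For these genes the T positions, which the authors counted separately, are given in place of read levels.

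Promoter windows of RefSeq (GRCm38.p6) matched 66 of the 86 members. A few are shown because the tract of C and T at the start of transcription is the sequence feature this family is known for. Each line gives 15 bases before and 15 after an annotated start, read 5′ to 3′ on the gene's strand, and capitals mark the longest run of C and T, or the first of them where runs tie, as in Rps27rt, which has another run of 6 bases after the marked one. The first pair are the parent Rps27 (chr3:90213634-90213663, minus strand) and its copy Rps27rt (chr9:114982725-114982754, minus). Rpl7a (chr2:26910792-26910821, plus) and Rpl35a (chr16:33056467-33056496, plus) have long runs, though RefSeq gives Rpl35a other starts too, with longest runs of 4 and 5 bases against 13 at the start shown, and Rps6 (chr4:86857353-86857382, minus) is the small subunit protein phosphorylated in mTOR signalling. Rps9 (chr7:3704026-3704055, plus), Rpl12 (chr2:32961697-32961726, plus) and Rps12 (chr10:23787195-23787224, minus) stand at the ends of comparisons below, and Rpl7l1 (chr17:46782642-46782671, minus) is the member with the highest share of new RNA in the cytosol.
Rps27: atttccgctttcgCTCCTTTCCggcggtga
Rps27rt: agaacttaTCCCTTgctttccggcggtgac
Rpl7a: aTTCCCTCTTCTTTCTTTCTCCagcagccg
Rpl35a: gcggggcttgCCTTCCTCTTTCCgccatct
Rps6: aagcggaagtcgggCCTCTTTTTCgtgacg
Rps9: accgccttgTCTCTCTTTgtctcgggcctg
Rpl12: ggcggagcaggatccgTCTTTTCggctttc
Rps12: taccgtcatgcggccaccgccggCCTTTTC
Rpl7l1: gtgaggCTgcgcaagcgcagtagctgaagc

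The run was 21 bases long in Rpl7a and 13 in Rpl35a. Within 30 bases on either side of the start, the longest run had a median of 9 bases over members and 6 over all 27025 genes with a window. It reached 8 bases in 35 members, 53.0%, against 25.8% of all genes. The letters CTTTCC or CTCTTT, which overlap in part, stood there on the gene's strand in 20 members, 30.3%, against 5.62% of all windows. On the other strand these shares were 4.55% and 5.40%. Among mitochondrial ribosomal proteins 5.80% held the letters. Rpl7l1, a relative of Rpl7, has no run longer than 2 bases in the 30 bases shown. The windows of Rps27 and Rps27rt have a stretch of 38 bases in common, which begins near the copy's annotated start.

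Ribosomal protein messages took up a larger part of the reads in the cytosol than in the nucleus. Members summed to 11.2% ± 0.963 of the gene counts of a cytosolic library (SD, n = 16), 7.23% ± 1.57 of a membrane library, 4.91% ± 1.24 of a nuclear library and 6.04% ± 1.14 of a whole-cell library (n = 16 each). The lowest cytosolic library, at 9.94%, stood above the highest nuclear library, at 6.94%, so these fractions did not overlap. Membrane libraries ran from 5.68% to 11.7% and overlapped with all other fractions. Within the replicate pairs the cytosolic means were 10.4%, 12.1% and 10.9%, and the nuclear means 4.91%, 3.86% and 6.504%. Shares are relative to the other RNA of the same fraction, so more RNA of a member and less of other genes cannot be told apart.

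**Figure D1:**
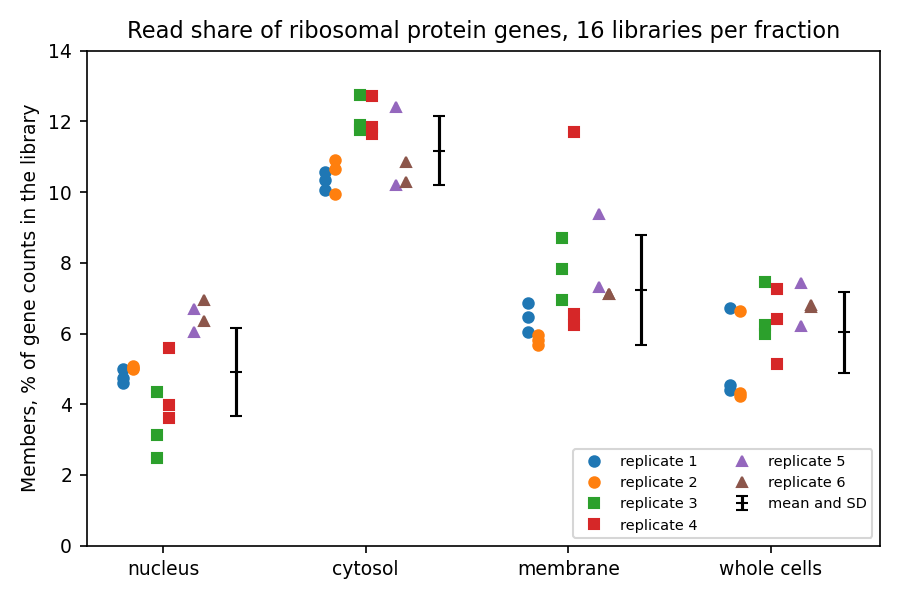
Sum of member reads as a percent of all gene counts (vertical axis) in each of 16 libraries per fraction, with replicates as symbols and the mean and SD as bars. All cytosolic libraries lie at 9.94% or above and all nuclear libraries at 6.94% or below, and 1 membrane library of replicate 4 stands apart at 11.7%.

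Summed reads of the 52 large subunit genes exceeded those of the 33 small subunit genes in every library. The sums were not divided by the number of genes, so they do not compare levels per gene. Reads of Rpl13a, Rpl24 and Rpl36al, all of the large subunit, were limited by overlapping genes. The ratio of the large to the small subunit sum was 1.20 ± 0.0445 in the cytosol, 1.20 ± 0.0503 at the membrane, 1.24 ± 0.0455 in whole cells and 1.28 ± 0.0606 in the nucleus (mean ± SD, n = 16 each). The fractions overlapped, with 1.12 to 1.27 in the cytosol and 1.20 to 1.38 in the nucleus.

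Per kilobase of the principal transcript, single members differed over a wide range. In whole cells Rpl41, which encodes a very short large subunit peptide, had a median of 2087 CPM per kb, Rplp1 of the stalk 2070 and Rps12 2061. At the other end, Rpl3l, the striated muscle form of Rpl3, had 1.5 CPM per kb, Rpl39l, known from male germ cells, 18.2, and Rps27rt 30.6. The common form exceeded its relative in each pair that could be read: Rpl3 had 868 CPM per kb, Rpl7 1198 against 208 for Rpl7l1, Rpl22 1039 against 171 for Rpl22l1, and Rps27 1549 against 615 for Rps27l. Rpl10l, a single-exon copy of Rpl10 known from male germ cells, had 60.9 CPM per kb and its parent 1181. These are descriptions of levels on a length scale, with no test between genes.

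Between nucleus and cytosol, nearly the whole family was lower in the nucleus. Of 85 members that passed the filter on low counts, 79 were lower (edgeR's quasi-likelihood test, adjusted p under 0.05 and a log2 difference over 0.5), 1 was higher and 5 were not called, against a background of 21.4% of 16093 genes lower and 43.1% higher. Rpl24 did not pass, since its reads could not be told from those of Gm28037. The median log2 difference in read level was −1.13 over members and 0.29 over all genes, so members lay 1.42 below the middle of the transcriptome. All 16 nuclear libraries were below all 16 cytosolic ones in 59 members, against 8.03% of all genes. The small subunit had 30 of 33 members lower, with a median of −1.13, and the large subunit 48 of 51, with a median of −1.14.

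Rps12 (chr10:23785183-23787275, minus strand), a small subunit protein, had the largest difference. Its level in the nucleus had a lowest, median and highest value of 293, 485 and 641 CPM, against 2003, 2569 and 3560 CPM in the cytosol. The fractions did not overlap, and the log2 difference was −2.47 ± 0.115 (SE, adjusted p = 1.12e-28, edgeR). Rps20 (chr4:3831334-3835665, minus) followed at −2.05 ± 0.112, with 374, 561 and 734 CPM in the nucleus and 1927, 2250 and 3059 in the cytosol. Rps2 (chr17:24718116-24721929, plus) had 581, 1028 and 1498 CPM in the nucleus and 3632, 4020 and 4587 in the cytosol, a difference of −1.996 ± 0.0912. The largest difference in the large subunit was that of Rpl32, at −1.86 ± 0.116.

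The stalk proteins, which recruit elongation factors, behaved like the family. Rplp0 had 377, 847 and 1394 CPM in the nucleus and 2101, 2359 and 2811 in the cytosol, a log2 difference of −1.52. Rplp1 lay at −1.38 and Rplp2 at −1.13. Rpl5 and Rpl11, which bind 5S ribosomal RNA and can inhibit Mdm2, lay at −0.86 and −1.20. Rps6 had 208, 365 and 588 CPM in the nucleus and 759, 988 and 1680 in the cytosol, a difference of −1.44, and Rpsa, also known as the laminin receptor, lay at −1.68. Rps27a, made as a fusion with ubiquitin, lay at −0.96.

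The 5 members without a call had log2 differences from −0.41 to −0.18. Rps3, a small subunit protein at the mRNA entry site, had 496, 1707 and 2701 CPM in the nucleus and 1668, 1909 and 2947 in the cytosol, with overlapping libraries and a difference of −0.41 ± 0.139. Rpl22l1, Rps27rt, Rps27 and Rpl39 lay at −0.35, −0.27, −0.24 and −0.18. Rpl39, a short protein of the peptide exit tunnel, had 93.0, 461 and 685 CPM in the nucleus and 303, 391 and 605 in the cytosol. Within the pair of replicates 5 and 6 its difference was 0.43, and that of Rps27 was 0.16, so neither direction was stable.

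Rpl36al, a relative of Rpl36a, was the 1 member called higher in the nucleus by reads, at 1.14. On the T positions the difference was −1.13 ± 0.0962. By the same measure Rpl13a lay at −1.15, against −0.54 by reads, and Rpl24 at −1.24. With T positions in place of reads, 81 of 85 members were lower and 0 higher, against 25.2% and 34.9% of 11575 genes. Of the ribosomal proteins outside the rule, Fau and Rack1 were lower by reads, at −1.22 and −0.91.

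The difference varied among replicate pairs but kept its direction. Within replicates 1 and 2, 79 members were lower, within replicates 3 and 4, 84, and within replicates 5 and 6, 66, against backgrounds of 30.4%, 24.5% and 23% of genes. The distance of the members' median from that of all genes ran from −0.77 within replicates 5 and 6 to −2.15 within replicates 3 and 4.

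Between the membrane fraction and the cytosol most members, 64 of 85, were not called. In edgeR's test 6 were higher at the membrane and 15 lower, against 24.7% and 13.6% of 16093 genes. The median log2 difference was −0.25 over members and −0.16 over all genes. The 6 higher members were Rps28 (0.77 ± 0.135), Rps27rt (0.70), Rpl37a (0.63), Rpl39 (0.62), Rps29 (0.57) and Rps27l (0.56), all of them short proteins. Rps28 (chr17:33819027-33824562, minus) had a lowest, median and highest level of 498, 608 and 1273 CPM at the membrane and 333, 395 and 465 in the cytosol. It was the 1 member whose membrane libraries all exceeded the cytosolic ones, a pattern of 14.4% of all genes.

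At the lower end stood Rps2 (−1.14 ± 0.0889), Rpl12 (−1.06 ± 0.103), Rps12 (−0.95), Rpsa (−0.93), Rps20 (−0.88) and Rpl4 (−0.82). Rps2 had 1238, 1936 and 2662 CPM at the membrane and 3632, 4020 and 4587 in the cytosol, and the libraries did not overlap. Rpl12, a large subunit protein at the base of the stalk, had 1057, 1359 and 2074 CPM at the membrane and 2121, 2715 and 4319 in the cytosol, again without overlap. No other member had all membrane libraries below all cytosolic ones, a pattern of 1.34% of all genes.

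**Figure D2:**
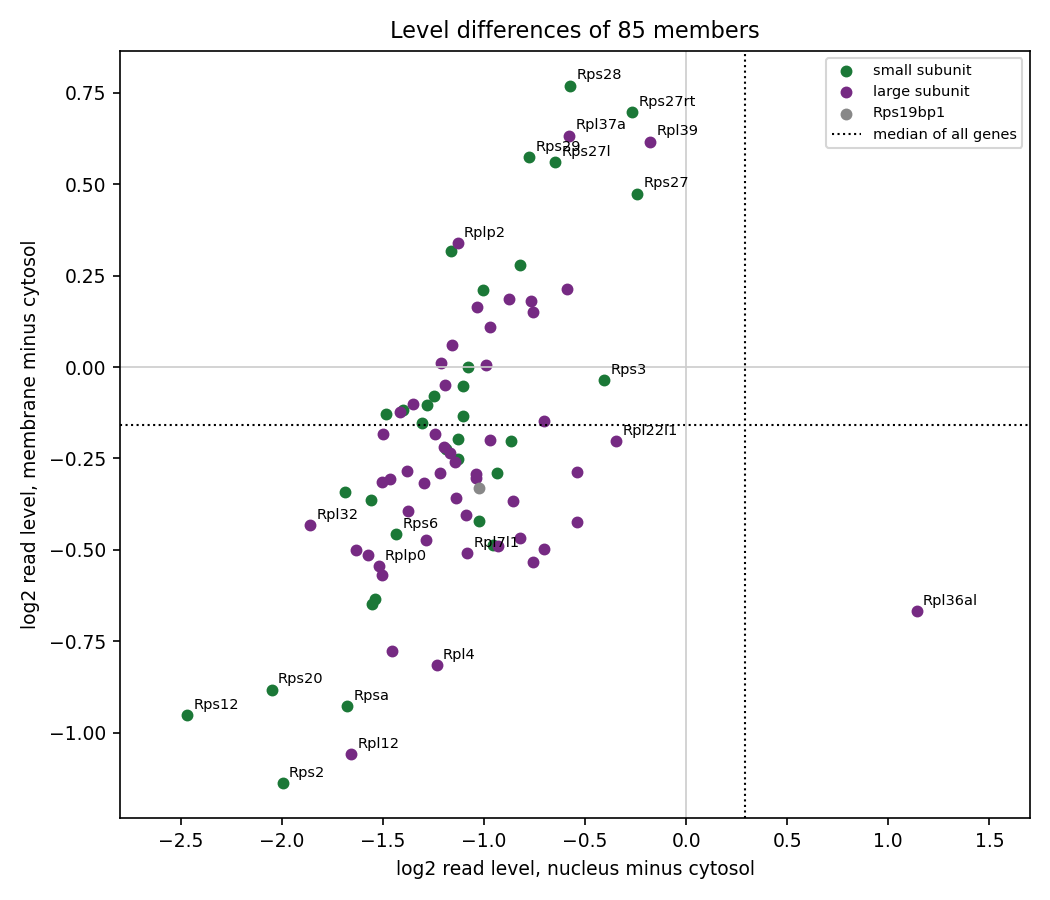
Log2 read level of each of 85 members in the nucleus (horizontal axis) and at the membrane (vertical axis), both minus the cytosol, with dotted lines at the medians of all genes (0.29 and −0.16). Rps12, Rps20, Rps2 and Rpl12 lie at the lower left and Rps28 at the top; Rpl36al lies far right by reads that an overlapping gene limits.

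The membrane difference followed the length of the coding sequence. Over the 84 ribosomal proteins tested, without Rps19bp1, Spearman's rank correlation with coding length was −0.65 for the membrane difference and −0.23 for the nuclear one, given as descriptions, since members share libraries. The median membrane difference was 0.085 in the 28 members with the shortest coding sequence, −0.22 in the middle 28 and −0.46 in the longest 28. Rps12, Rps20 and Rpl12 lay among the lowest with coding lengths of 396, 357 and 495 nt. The rank correlation of the membrane difference was −0.56 with transcript length, −0.45 with the number of exons and −0.048 with intron length. Neither the level in whole cells (−0.011) nor the share of unique words (0.11) moved with the membrane difference.

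**Figure D3:**
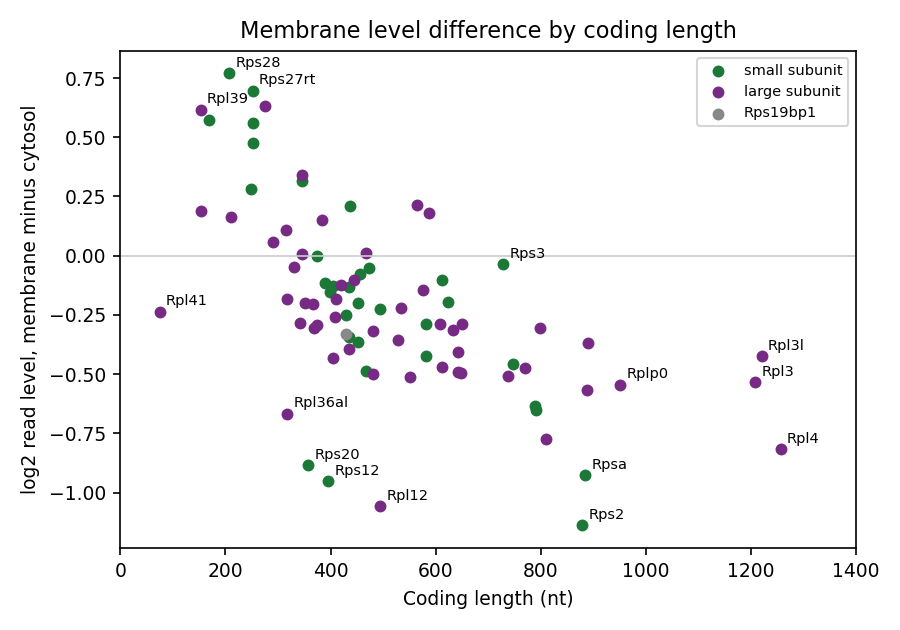
Log2 read level at the membrane minus the cytosol (vertical axis) against coding length in nt (horizontal axis) for 85 members, colored by subunit. The 6 members called higher have coding sequences of at most 276 nt, and Rps2, Rpl12, Rps12, Rpsa and Rps20 lie lowest.

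The membrane calls depended on scaling and on the replicates. With library size alone as scaling, 0 members were higher and 51 lower, against 21.55% and 47.0% of genes. The median of all genes moved to −0.47. With T positions 0 were higher and 66 lower, against 16.3% and 67.2% of 11575 genes. T positions were scaled by the library's total alone, and the median of all genes was then −0.70. On T positions Rps28 lay at 0.22, Rpl39 at 0.11, Rpl37a at 0.058, Rps27l at 0.038, Rps29 at 0.017 and Rps27rt at −0.036. Within replicates 1 and 2, 12 members were higher and 8 lower (backgrounds of 26.3% and 10.3%), within replicates 3 and 4, 4 and 29 (26.1% and 10.9%), and within replicates 5 and 6, 4 and 17 (21.4% and 27.8%). Without replicate 1, 23 were lower, against 12.4% of genes. Without replicate 2, 3 were higher and 29 lower (backgrounds of 23.0% and 26.3%). Without replicate 5, 2 were higher and 32 lower (23.2% and 27.3%).

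Between 60 and 20 min of labeling, at 100 µM and 500 µM by the labels, no member level was called different in whole cells. In replicates 3 and 4, 0 of 85 members and 0 of 16701 genes passed edgeR's test, a background of 0%, and 0 members had an unadjusted p under 0.05. DESeq2 also called 0. The median log2 difference was 0.33 over members and 0.00 over all genes, and 84 of 85 members were above 0, Rpl3l being the exception at −0.45 ± 0.367. Rps21 (0.53 ± 0.318) and Rpl36 (0.50 ± 0.313) had the largest values. The member median rested on the single cultures, since it was 0.58 without replicate 3 and 0.09 without replicate 4.

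The share of new RNA is the fraction of T positions read as C, divided by the library's conversion probability. It includes the background of T-to-C changes present without label, so shares at short times are upper values. By 120 min the exons of the family had taken up little new RNA. In the cytosol, the median share over members was 7.94% in replicate 5 and 7.64% in replicate 6, against 37.2% and 36.7% over all genes. In the nucleus it was 11.7% and 10.9%, against 44.5% and 41.3%, and at the membrane 7.98% and 7.03%, against 31.8% and 28.6%. Of 85 members with at least 400 T positions in every library, 81 stood among the lowest 10% of 11575 genes in the cytosol and 78 in the nucleus, in both replicates. Shares at 15 min were 1.43% and 1.05% in the cytosol, close to those of all genes at 1.81% and 1.34%.

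Rpl7l1 was the 1 member above the median of all genes in the cytosol, with 39.5% and 40.9% at 120 min in replicates 5 and 6, while its relative Rpl7 had 7.79% and 7.67%. Rps19bp1, no ribosomal protein, had 35.6% and 27.7%. Rpl10l had 20.9% and 21.8% against 8.39% and 7.77% for Rpl10, and Rpl36al had 13.4% and 14.1% against 6.71% and 6.53% for Rpl36a. The lowest member was Rps12, with 4.91% and 4.96%. Other relatives differed little, with Rps27l at 9.96% and 9.38% and Rps27 at 6.90% in both, and Rpl22l1 at 7.67% and 7.68% against 6.12% and 6.32% for Rpl22.

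The small subunit had a lower median share of new RNA than the large subunit in all 16 nuclear and all 16 whole-cell libraries, in 15 of 16 cytosolic libraries and in 11 of 16 membrane libraries. The difference in the nucleus was −0.919 ± 0.464 percentage points (mean ± SD, n = 16), and in the cytosol −0.133 ± 0.117. At 120 min the nuclear medians were 11.4% and 10.6% for the small and 11.8% and 11.2% for the large subunit. The members behind each median are genes, not replicates, and no test was made between the subunits.

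Nuclear exons held a larger share of new RNA than cytosolic exons throughout the family. In limma's test on log2(share + 0.01), 84 of 85 members were higher in the nucleus, and Rps3 was not called, against 76.3% of 11575 genes. Within replicates 1 and 2, 70 were called (background 53.9%), and within replicates 3 and 4, 85 (81.6%). The median log2 difference was 0.95 over members and 0.88 over all genes, so over the main libraries together the family's nuclear excess was near that of the transcriptome. It was 0.87 over the small and 0.97 over the large subunit. The pseudocount of 0.01, 1% of RNA, shrinks differences between low shares. With 0.05 the count was 44 of 85, against 57.3% of genes. The medians were then 0.51 over members and 0.55 over all genes. Within replicates 5 and 6, with 4 libraries per fraction, 3 members were called, against 0.463% of genes, although the 4 nuclear medians of 6.49% to 11.7% exceeded the cytosolic medians of the same cultures. The median log2 difference within this pair was 0.50 over members and 0.19 over all genes. Within replicates 1 and 2 these medians were 0.80 and 0.79, and within replicates 3 and 4, 1.43 and 1.37.

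The largest nuclear excess was that of Rps9, a small subunit protein of the mRNA entry channel. Its share at 120 min was 21.8% and 20.0% in the nucleus and 9.03% and 8.30% in the cytosol, and its log2 difference was 2.30 ± 0.141. Rpl9 (2.08), Rpl10a (1.95), Rps20 (1.89), Rps13 (1.86), Rpl3 (1.83) and Rpl12 (1.77) followed. At the other end were Rps3 (0.49 ± 0.106), Rpl37a (0.54) and Rplp1 (0.60). Rps3 had 9.72% and 8.74% in the nucleus and 9.24% and 8.75% in the cytosol at 120 min, so its fractions differed by less than its replicates.

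Some annotated exons cover introns of other transcripts of the same gene, and these rows lift the share. A set of exons that do not overlap each other and cover no intron of a principal transcript was used as an alternative. It left out some further exons that cover no intron. On it, 83 of 84 members were higher in the nucleus, against 74.5% of 10252 genes, and the median was 0.89. Rps9 then fell to 1.45, Rpl9 to 1.41 and Rps13 to 1.21. Rpl10a at 2.06, Rps20 at 1.89, Rpl3 at 1.85 and Rpl12 at 1.72 kept a value close to that over all exons.

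Along the gene, new RNA was not even. In Rpl10a (chr17:28328471-28331033, plus strand) the nuclear share at 120 min in replicates 5 and 6 was 6.65% and 8.01% in the exon at chr17:28328967-28329047, 12.6% and 12.03% in the next, 23.6% in both replicates in the fifth and 23.7% and 25.0% in the last. In the cytosol the same exons ran from 4.49% and 3.33% to 7.69% and 6.54%. In Rpl3, the large subunit protein nearest the catalytic centre, the nuclear share was 13.1% and 10.8% in the second exon (chr15:80082390-80082582) and 22.6% and 20.4% in the last. The first exon rows of both genes held few reads in the nucleus, with 754 and 844 T positions and shares of 0.0% and 8.99% in Rpl10a, and with 442 and 543 T positions and shares of 5.94% and 9.31% in Rpl3.

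Rps9 (chr7:3703993-3706897, plus strand) combined both patterns. Its exon at chr7:3704646-3704768 had 8.91% and 8.14% of new RNA in the nucleus and its last exon, chr7:3706651-3706897, had 18.4% and 18.1%, while the row at chr7:3706008-3706895, which covers an intron, had 41.2% and 37.4%. In Rpl12 (chr2:32961559-32965345, plus) the 6 exons before the last lay between 15.4% and 20.2% in the nucleus and between 5.99% and 8.61% in the cytosol, so the nuclear excess held along the gene. Rps20 had 11.9% and 9.54% in its first exon and 19.1% and 17.6% in its last. Rps3 (chr7:99477896-99483738, minus) had 8.02% to 11.4% in all exons in the nucleus and 7.77% to 11.02% in the cytosol. Per-exon shares have no depth-matched test here and are given as values.

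**Figure D4:**
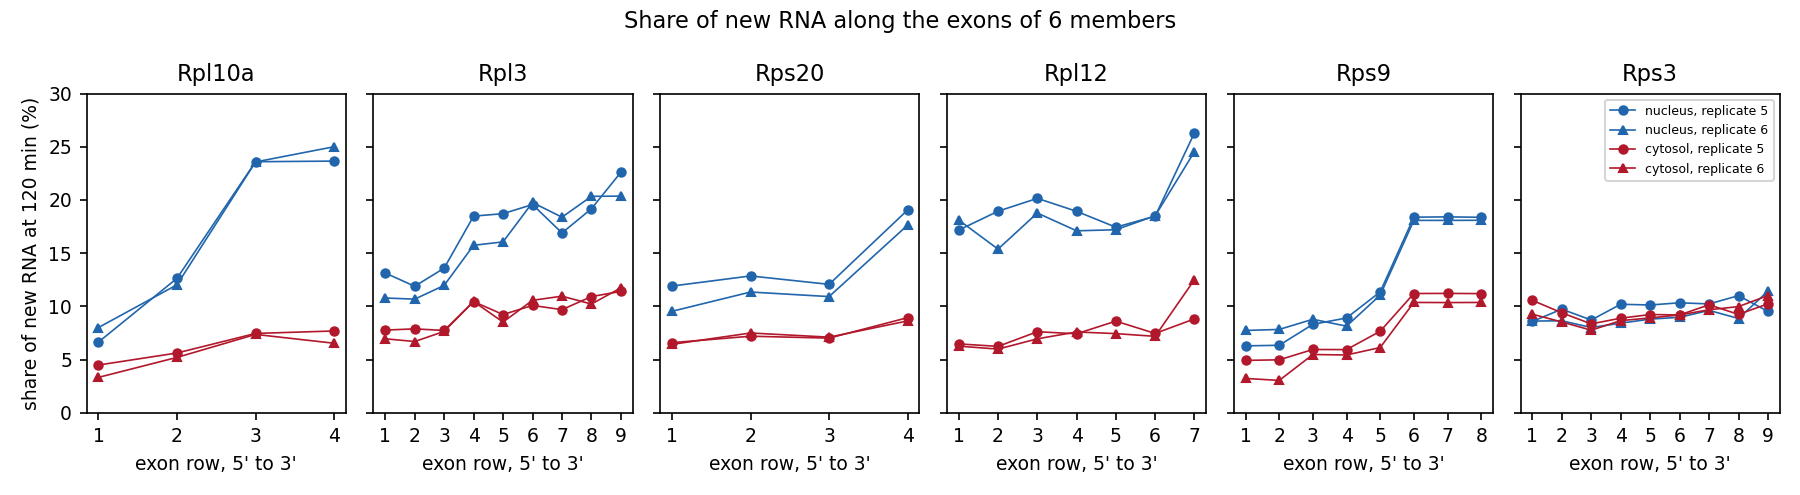
Share of new RNA in percent at 120 min (vertical axis) in annotated exon rows that cover no intron, from 5′ to 3′ (horizontal axis), for 6 members in replicates 5 and 6, with rows under 2000 T positions in the nuclear library of replicate 5 left out. Nuclear values (blue) rise toward the 3′ end of the plotted rows in Rpl10a, from 6.65% and 8.01% to 23.7% and 25.0%, and stay level in Rps3, where cytosolic values (red) lie on the nuclear ones.

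At the membrane the share of new RNA did not differ detectably from that in the cytosol. In limma's test 0 of 85 members passed and 0 had an unadjusted p under 0.05, against a background of 2.27% of genes higher and 9.39% lower. The median log2 difference was −0.0085 over members and −0.0048 over all genes. Rpl12 (0.23 ± 0.133), Rps20 (0.20 ± 0.13) and Rps2 (0.16 ± 0.117) had the highest values. Rps19bp1 had the lowest value, −0.25 ± 0.15.

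Between 20 and 60 min, again with a different dose by the labels, a smaller part of the members than of all genes was called higher in the share of new RNA in the main fit. In replicates 3 and 4, limma called 54 of 85 members higher at 60 min in the cytosol, against 71.6% of genes, with a median log2 difference of 0.63 over members and 1.44 over all genes. The order of these parts depended on the pseudocount. With 0.002, 63 of 85 members were called, against 69.9% of genes, so the members' part was then the larger. The medians were then 0.84 over members and 1.72 over all genes. Rpl7l1 rose from 2.47% and 3.21% to 10.5% and 10.7%, a difference of 1.60 ± 0.3, followed by Rps27rt (1.49 ± 0.442), whose replicates stood apart at 10.4% and 3.45% at 60 min, and Rps19bp1 (1.23). Rpl22 (0.25), Rplp0 (0.26) and Rps2 (0.32) had the smallest values. With a single culture left per time, the member median was 0.51 without replicate 3 and 0.77 without replicate 4, against 1.325 and 1.535 over all genes. The count was 32 without replicate 1 or replicate 2, which only add to the estimate of the spread. The backgrounds were then 72.15% and 72.21% of genes.

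In the nucleus 9 members were higher at 60 min, against 52.3% of genes, and the median log2 difference was 0.35 over members and 1.05 over all genes. Rpl10a rose from 13.7% and 11.4% to 39.2% and 25.5%, a difference of 1.27 ± 0.211. Rps19bp1 (1.01), Rps24 (0.81), Rpl10 (0.77), Rps18 (0.74), Rpl22 (0.72), Rps10 (0.69), Rpl13a (0.66) and Rpl4 (0.62) were the others. Rpl39l (−0.43 ± 0.646), Rps13 (−0.32) and Rpl9 (−0.23) had the lowest values, and on exons that cover no intron Rps13 lay at 0.29 and Rpl9 at 0.075. With a single culture left per time, the member median was 0.29 without replicate 3 and 0.39 without replicate 4, against 0.95 and 1.16 over all genes. The count was 4 without replicate 1 or replicate 2, against 54.0% and 54.15% of genes.

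Introns of the family held more new RNA at short labeling times than those of other genes. In the nucleus at 15 min the median intron share was 47.1% and 46.0% over members in replicates 1 and 2, against 14.2% and 12.7% over all genes. At 20 min it was 64.7%, 80.3%, 83.7% and 83.7% in replicates 1 to 4, against 21.8%, 27.0%, 41.8% and 34.2%. At 40 min it was 106% and 102%, against 71.6% and 69.2%, and at 120 min it was 88.7% and 87.9%, below the 94.97% and 92.6% of all genes. Shares can exceed 100% because 1 conversion probability is applied to a whole library.

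**Figure D5:**
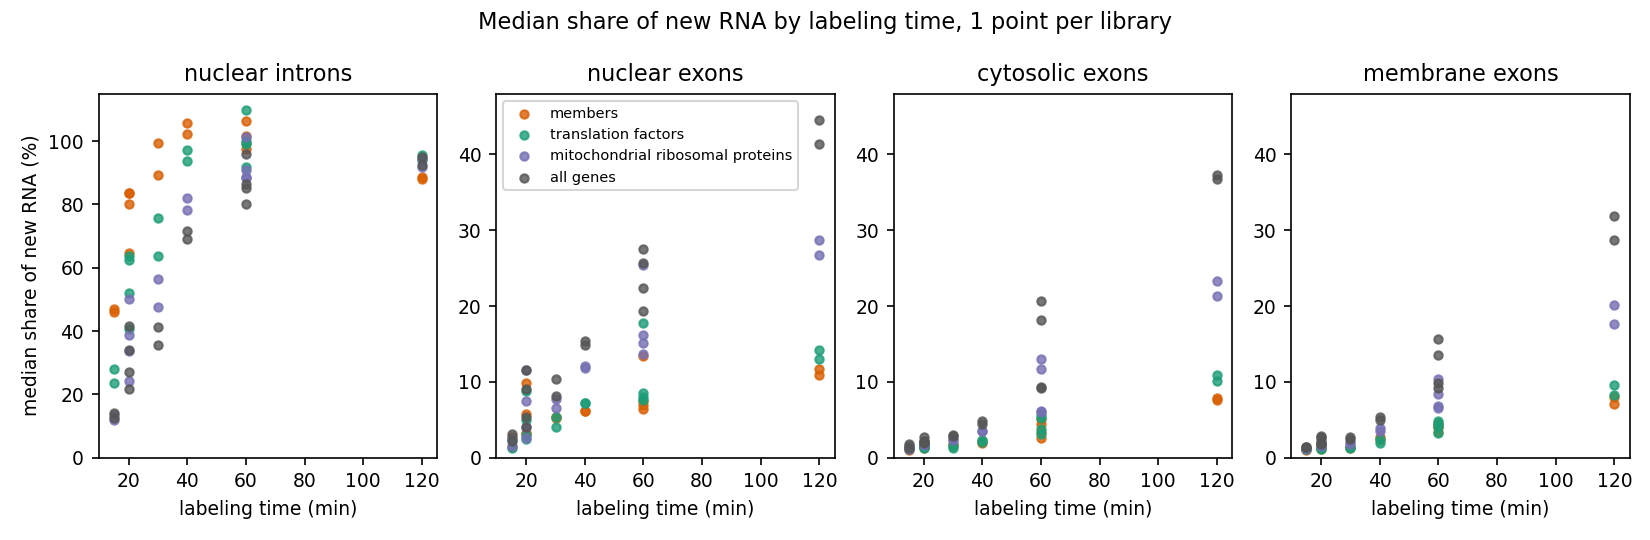
Median share of new RNA in percent (vertical axes) against labeling time in min (horizontal axes), 1 point per library, for members, 18 translation factors, 78 mitochondrial ribosomal proteins and all genes. Member introns in the nucleus lie above all genes from 15 to 60 min, while member exons lie below them in every fraction by 120 min.

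Among 81 members with at least 400 T positions in exons and introns of every nuclear library, all 81 had a higher share in introns than in exons by limma's test, against 96.3% of 10380 genes. The median log2 difference was 3.61 over members and 1.83 over all genes. Rps29 (4.37 ± 0.146), Rplp1 (4.32) and Rps28 (4.29) had the largest values. Rps29 introns had 76.0% and 87.6% new RNA at 15 min and Rplp1 introns 69.2% and 79.0%. The smallest were those of Rps9 (1.66), Rpl7l1 (2.07), Rps19bp1 (2.14) and Rpl10a (2.17). At 15 min Rpl7l1 introns had 16.5% and 15.2% and Rpl10a introns 22.6% and 23.5%.

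Introns also made up a small part of the family's RNA. Per 100 T positions in exons, members had 14.5 in introns in the nucleus, 1.33 in the cytosol, 0.961 at the membrane and 4.63 in whole cells, as medians over members of the sums over libraries. All genes had 35.0, 8.66, 6.75 and 19.5. Rpl12 had 66.3 in the nucleus and Rpl7 5.3. Genes differ in intron length, and the ratio is not scaled for it.

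Other genes of the translation machinery were taken as lists. Among 18 translation factors and related proteins, many with a pyrimidine tract, 12 were lower in the nucleus by reads, with a median of −1.04, and Pabpc1, the poly(A) binding protein, was higher at 0.78. Elongation factor Eef1a1 lay at −1.55 and Eef2 at −0.39. Of 77 mitochondrial ribosomal proteins tested, 46 were lower in the nucleus, with a median of −0.71. In the share of new RNA the translation factors were close to the members, with cytosolic medians of 10.9% and 10.2% at 120 min, and the mitochondrial ribosomal proteins lay between members and all genes, at 23.4% and 21.3%. For nuclear introns against exons, the median log2 difference was 3.15 over the factors and 2.24 over the mitochondrial list, below the 3.61 of the members. These lists were described only and not tested against the members.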

How the data were processed

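The members and lists were chosen with earlier results of these data known. Reads had been aligned to mm10 and counted by the authors; the submitters' processing notes name STAR 2.7.6, HTSeq 0.11.1 and RSEM 1.3.3. The deposited gene tables hold raw counts of uniquely aligned reads. The deposited conversion tables give, per gene and exon, counts of T positions and of T-to-C changes, their ratio, and a conversion probability as a fraction, which the authors estimated for each library. Per library, T-to-C counts were divided by T counts and by that probability.

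Read levels were tested with edgeR 4.0.16 (quasi-likelihood, TMM, filterByExpr) over 64 libraries of 4 fractions, with labeling time and replicate pair as a term, and DESeq2 1.42.0 as an alternative. Shares were tested with limma 3.58.1 on log2(share + 0.01), for genes with at least 400 T positions in every library. Genes were called at a Benjamini-Hochberg adjusted p under 0.05 and a log2 difference over 0.5. The tests were checked on simulated data. T positions in place of reads, exons that cover no intron, fits within a replicate pair and fits without 2 whole-cell libraries were alternatives chosen after seeing the data. Named genes were the 3 highest and 3 lowest members of each comparison, members called against the majority, paralog pairs, fixed examples by role and the extremes of level per kb. Others, such as Rpl32, Rps24 and the genes of the exon profiles, were named after their values were seen. Fractions of 1 replicate and time share a culture, and their deviations from group means had a median correlation of 0.12 over 96 pairs. Results for some genes are not reported here.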

Additional observations from a re-analysis of the deposited data

Results flagged for a closer look

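Among 16 sets of 4 libraries of 1 fraction at 20 or 60 min, compared in the members' part of all reads or their median share of new RNA, 1 held a library far from the rest, and chance gives about 1 in 20. The median share of new RNA in member exons of the nucleus at 60 min was 13.4%, 6.98%, 7.52% and 6.49% in replicates 3 to 6. The gap of replicate 3 to the nearest library was 0.851 of the range, above the 95% critical value of Dixon's test for 4 values. The test takes the 4 libraries as alike, although they come from replicate pairs with different conversion probabilities. The cause was not tested.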

How the results depend on the processing

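Of the values recomputed for the main counts and medians, 181 kept within 1.5 times or 1 SD and 29 moved, and of those for single named genes 720 kept direction and call, 47 lost the call, 14 gained it and 13 changed sign. With no filter, 2 members were higher in the nucleus and 24 lower at the membrane, against 26.8% and 10.75% of genes. With T positions, 0 were higher in the nucleus (Rpl36al −1.13), against 34.9% of genes. At the membrane 0 were higher and 66 lower (Rps27rt −0.036), against 16.3% and 67.2% of genes. With library size alone the membrane counts were 0 and 51, against 21.55% and 47.0% of genes. Within replicates 1 and 2 they were 12 and 8, against 26.3% and 10.3%, and within replicates 3 and 4, 29 were lower, against 10.9%. Leaving out 1 replicate gave 2 to 7 higher and 11 to 32 lower at the membrane, 1 to 12 higher at 60 min in the nucleus and 1 to 57 in the cytosol (Rpl22 −0.046 to 0.55). For shares, pseudocount 0.05 gave 44 members higher in the nucleus and 5 at 60 min in the cytosol, against 57.3% and 63.3% of genes. Pseudocount 0.002 gave 5 at 60 min in the nucleus, against 37.6%, and 63 in the cytosol, against 69.9%. Replicates 5 and 6 alone gave 3 higher in the nucleus (Rps3 −0.0043), against 0.463%. With all 72 libraries, the median share at 120 min was 12.1% in place of 11.3% in the nucleus and 6.96% in place of 7.79% in the cytosol. In the nuclear level, leaving out libraries gave −0.55 to 0.012 for Rps27 and −0.53 to 0.16 for Rpl39, Rpl39 was 0.23 within replicates 1 and 2, and Rps27 was 0.16 and Rpl39 0.43 within replicates 5 and 6. In the membrane share, Rpl39l was 0.12 within replicates 1 and 2 and Rpl10l 0.14 within replicates 3 and 4. In nuclear 60 against 20 min, Rps13 was 0.29 and Rpl9 0.075 on exons that cover no intron. With the replicate block, which pairs fractions of the same culture, 79 were lower and 1 higher in the nuclear level, against 21.5% and 43.1% of genes. In the membrane level 6 were higher and 17 lower, against 24.7% and 13.8%. In the nuclear share 84 were higher, against 76.2%, and in the membrane share 0 were called, against 2.20% higher and 9.32% lower. At 60 min 8 were higher in the nucleus and 47 in the cytosol, against 49.1% and 69.9%. For introns 81 were higher, against 96.3%, and in whole cells 0 were called, against 0% of genes. No count moved by over 1.5 times. Rps24 lost its nuclear call at 60 min. The causes were not tested, except that leaving out replicates or using 1 pair leaves fewer libraries.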

Other observations

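Introns of members were rich in new RNA outside the nucleus too. At 20 min the median share of new RNA in cytosolic introns was 58.4%, 70.4%, 58.9% and 64.7% over members in replicates 1 to 4, against 11.1%, 13.4%, 19.5% and 18.9% over all genes. At the membrane it was 58.9%, 74.7%, 74.2% and 72.3%, against 12.8%, 14.6%, 24.3% and 20.7%. Translation factors lay between, with 22.2% to 45.0% in the cytosol. Carry-over of nuclear RNA into these fractions was not tested for these introns.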
